A study of Drosophila melanogaster with 2 samples.

Results

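Single CBP peaks with another peak in the wider neighbourhood were examined in Drosophila melanogaster embryos collected over the first 4 h after egg laying. They were selected on position alone. A listed peak on 2L, 2R, 3L, 3R, 4 or X was taken when the nearest other peak on the same arm lay more than 5000 bp and at most 50000 bp away, measured from edge to edge. This gave 546 of the 1326 peaks on the main arms, or 41.2% (exact binomial 95% interval 38.5 to 43.9), out of 1347 peaks in all. They are named single peaks below. The other arm peaks comprised 493 with a neighbour within 5 kb, named clustered peaks, and 287 with no neighbour within 50 kb, named remote peaks.

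The study used chromatin immunoprecipitation and sequencing (ChIP-seq) with a CBP antibody labelled rbCBP on untreated whole embryos, and an aliquot of the chromatin taken before precipitation served as input. Whether the input entered the peak calling, and hence the score, is not stated. The labels name 1 ChIP sample and 1 input sample, both as replicate 1, and the growth protocol leaves it unstated whether the embryos came from iso1 (y; bw cn sp) or from transgenic flies. With 1 peak list no value has a replicate error and no difference was tested. Intervals are 95% intervals for the counting of peaks in this list (exact binomial for shares, order statistics for medians). They treat neighbouring peaks as independent. As no counts are listed, read depth is unknown, and peaks weaker than the lowest listed score of 50.02 are not seen, neither as single peaks nor as their neighbours.

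CBP (CREB-binding protein, encoded by nejire in the fly) is a large co-activator that does not read DNA sequence itself. It is brought to enhancers and promoters by bound transcription factors and acetylates histones there, including lysine 27 of histone H3, a mark of active regulatory DNA. In the early embryo many patterning genes are controlled by several separate enhancers, some of which lie many kilobases from the promoter. Embryos are whole animals, so a peak may stem from a few cells or from many, and the list does not tell these apart. Genes and motifs are not named for these peaks, since the peaks are on BDGP5 and the available gene annotation is of Release 6.

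Single peaks were the most numerous of the 3 distance classes by count, but not by sequence covered. This order follows from the chosen limits: with an upper limit of 20 kb there were 283 single peaks, fewer than the clustered peaks. The 546 single peaks covered 354307 bp, or 38.8% of all bases under arm peaks, against 370564 bp (40.6%) for the 493 clustered peaks and 188425 bp (20.6%) for the 287 remote peaks. The distances that chose the single peaks ranged from 5105 to 49456 bp, with quartiles of 10689 and 28928 bp and a median of 19122 bp. Between 5 and 10 kb from the nearest peak lay 126 of them, between 10 and 20 kb 157, between 20 and 30 kb 132, between 30 and 40 kb 75 and between 40 and 50 kb 56.

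**Figure D1:**
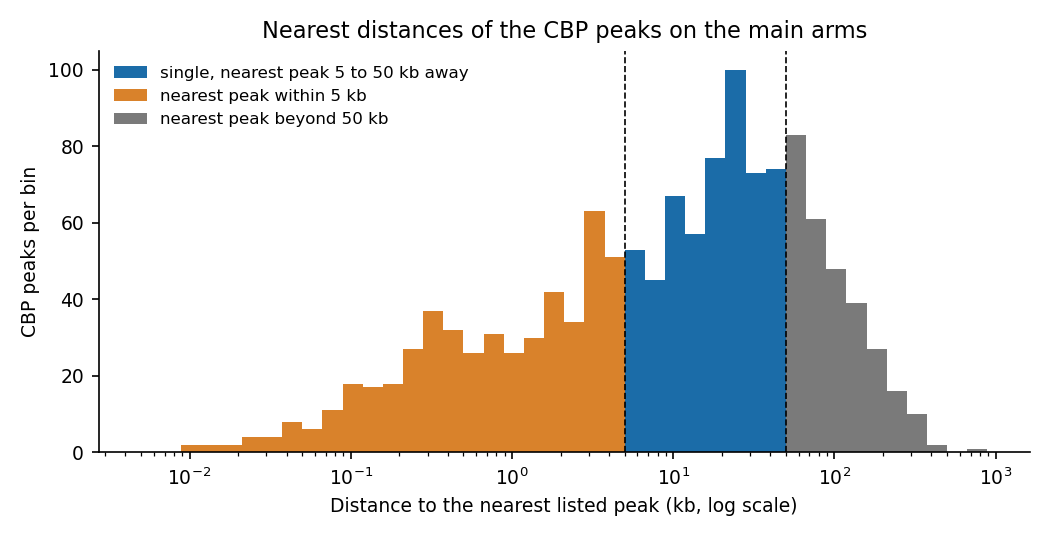
Histogram of the distance from each of the 1326 arm peaks to its nearest listed peak (horizontal axis in kb on a log scale, vertical axis in peaks per bin), coloured by distance class. Dashed lines mark the limits of 5 and 50 kb, and the counts run on across both limits without a gap.

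No break in the list separates the single peaks from the other classes. The closest single peaks were a pair on 3L, at chr3L:14183770-14184292 (score 67.85) and chr3L:14189398-14189841 (score 64.73), 5105 bp apart. Next to them came chr2L:18874992-18875802, 5140 bp from its neighbour, with a score of 64.73. Just under the lower limit were chr3R:15140569-15141067 and chr3R:15146053-15146433, 4985 bp apart, with scores of 50.42 and 80.88. The third such peak was chr3R:2636268-2636884, 4880 bp from its neighbour, with a score of 50.75. At the upper limit, the single peaks chr3R:1376060-1376542, chr2L:20820297-20820633 and chrX:6588527-6589064 had their nearest peak at 49456, 49423 and 48993 bp, with scores of 64.43, 55.03 and 56.94. Just beyond it, chr2R:2810588-2811086, chr2R:4788219-4789163 and chr3L:1410273-1410820 had theirs at 50254, 50278 and 50668 bp, with scores of 86.84, 75.33 and 51.23. There were 27 single peaks between 5 and 6 kb (median score 66.49, median width 658 bp), against 37 clustered peaks between 4 and 5 kb (median score 67.58, median width 665 bp). Between 40 and 50 kb the 56 single peaks had a median score of 62.09, against 64.12 for the 51 remote peaks between 50 and 60 kb.

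Single peaks had a median score and a median width slightly below those of all arm peaks, 68.095 and 625.5 bp. The score is the authors' own MACS value for each peak, on a scale the file does not state, and it was used only within this list. Single peaks had a median score of 65.42 (63.49 to 67.63), quartiles of 56.41 and 86.58 and extremes of 50.02 and 387.42. Scores under 60 were held by 203 of them (37.2%, 33.1 to 41.4), and scores of at least 100 by 94 (17.2%, 14.1 to 20.6). Their widths ran from 227 to 1943 bp, with the central 50% between 438 and 800 bp and a median of 587 bp (560 to 622). Of the 546, 96 (17.6%) were narrower than 400 bp and 57 (10.4%) wider than 1000 bp. Over all arm peaks, 33.3% scored under 60 and 20.9% at least 100. In width, 14.1% of all arm peaks were narrower than 400 bp and 13.4% wider than 1000 bp. The interval of single peaks for scores under 60 includes the share over all arm peaks, and the intervals of the other shares narrowly exclude it. For scores of at least 100 the upper bound was 20.6%, against 20.9% over all arm peaks. For widths above 1000 bp the upper bound was 13.3%, against 13.4%. For widths under 400 bp the lower bound was 14.5%, against 14.1%.

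In both measures single peaks lay below clustered peaks and close to remote peaks. The median score was 65.42 in single and 73.53 (69.72 to 77.23) in clustered peaks, a difference of -8.11. The median width was 587 bp in single and 680 bp (657 to 703) in clustered peaks, a difference of -93 bp. For both measures the intervals did not overlap, but this separation depended on the limits of the list and of the rule. With an upper limit of 20 kb in place of 50 kb the difference in score was -5.79, with bounds from the 2 intervals of -12.38 and 2.54 that include 0. With only peaks at or above the list's median score, the difference in width was -65.5 bp (-167 to 44). For remote peaks the medians were 67.51 in score (64.54 to 70.08) and 574 bp in width (543 to 611), and both intervals overlap those of single peaks. A score of at least 100 was reached by 17.2% of single peaks (14.1 to 20.6), by 29.0% of clustered peaks (25.04 to 33.2) and by 13.9% of remote peaks (10.1 to 18.5).

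The difference from single peaks was larger for fuller clusters. Against the 587 bp of single peaks, the 213 peaks in groups of 3 or more (joined at 5 kb) were wider, with a median of 719 bp (681 to 772). For the 280 peaks in neighbouring pairs it was 648.5 bp (621 to 679). In score, the median of 65.42 in single peaks stood against 79.25 (73.33 to 88.87) in groups and 69.595 (65.69 to 74.22) in pairs. The intervals of groups lay apart from those of single peaks, and those of pairs overlapped them, in width by 1 bp. Peaks narrower than 400 bp made up 17.6% of single peaks (14.5 to 21.0), against 13.6% of peaks in pairs (9.79 to 18.1) and 3.76% of peaks in groups of 3 or more (1.64 to 7.27). The peak caller sets both the width of a peak and the gap to the next, and its part in these differences was not tested.

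**Figure D2:**
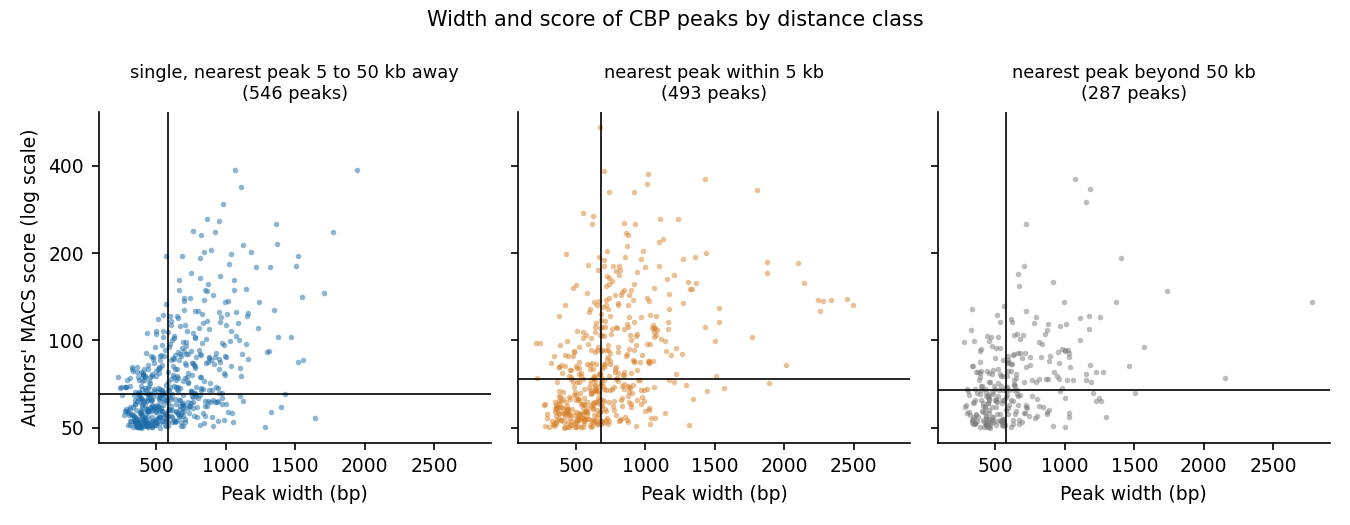
Width in bp (horizontal axis) and the authors' MACS score (vertical axis, log scale) of each peak, in single, clustered and remote peaks from left to right, with black lines at the medians of each class. Single peaks crowd at low score and small width, with medians of 587 bp and 65.42, and clustered peaks reach further up and to the right, with medians of 680 bp and 73.53.

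Width and score went together among single peaks, with a Spearman's rho of 0.51 over 546 peaks, against 0.50 among the 493 clustered and 0.38 among the 287 remote peaks. Within arms, rho over single peaks was 0.58 on 2L (101 peaks), 0.49 on 2R (111), 0.62 on 3L (100), 0.42 on 3R (169) and 0.46 on X (63). Because score and width are linked, widths were also set side by side within steps of score. Below a score of 60, the median width was 477 bp (442 to 505) in single peaks, 546 bp (507 to 571) in clustered peaks and 491.5 bp (453 to 548) in remote peaks. From 60 to under 70 it was 556 bp (516 to 616) in single, 648 bp (619 to 690) in clustered and 509.5 bp (455 to 574) in remote peaks. In both steps the intervals of single and clustered peaks did not overlap.

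At scores from 70 upwards the intervals of single and clustered peaks overlapped in each step. From 70 to under 100, single peaks had a median width of 654 bp (605 to 710), against 689.5 bp (641 to 744) in clustered peaks. From 100 to under 150 the values were 828 bp (723 to 908) over 63 single peaks and 848 bp (762 to 913) over 83 clustered peaks. Above that the single peaks had the larger medians, 960 bp (747 to 1217) over 15 single peaks against 888.5 bp (757 to 1156) over 38 clustered peaks from 150 to under 200, and 1020 bp (867 to 1360) over 16 against 898.5 bp (721 to 1099) over 22 from 200 upwards. The last 2 steps rest on few peaks. They held 5 and 4 remote peaks, with median widths of 709 and 1114.5 bp and too few for an interval.

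At like width, in turn, single and clustered peaks had overlapping score intervals in every step. Below 400 bp the median score was 56.68 (54.93 to 59.17) in single and 58.845 (55.96 to 61.93) in clustered peaks. From 400 to under 600 bp it was 61.795 (58.5 to 63.68) in single and 59.57 (56.91 to 62.91) in clustered peaks. From 600 to under 800 bp single peaks had 69.92 (65.27 to 76.33) and clustered peaks 74.605 (69.72 to 80.8). From 800 to under 1000 bp single peaks had 84.28 (71.61 to 90.57) and clustered peaks 85.71 (73.33 to 103.34). From 1000 bp upwards the values were 110.68 (92.32 to 135.79) over 57 single peaks and 110.61 (100.87 to 129.24) over 83 clustered peaks. Single peaks had the lower median score below 400 bp and from 600 to under 1000 bp, and the higher one in the other steps. Each step holds fewer peaks than its class, which widens the intervals. The part of width in the difference of -8.11 in median score over all widths was not tested.

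**Figure D3:**
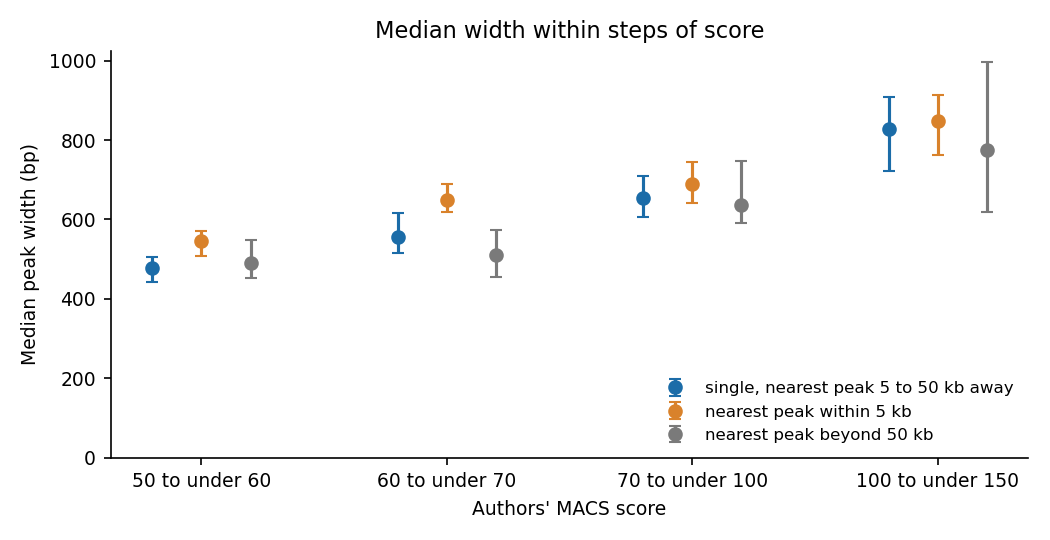
Median peak width in bp (vertical axis) within 4 steps of the authors' MACS score (horizontal axis), with 95% order-statistic intervals as bars, for single, clustered and remote peaks. Single peaks lie below clustered peaks with separate intervals in the first 2 steps, 477 against 546 bp and 556 against 648 bp, and the intervals overlap in the others.

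Some of the highest scores of the list belonged to single peaks. Of the 20 highest-scoring arm peaks 5 were single peaks (25%, 8.66 to 49.1), and of the 50 highest 20 were (40%, 26.4 to 54.8). Both intervals include the share of single peaks among all arm peaks, 41.2%. Of the 100 highest 31 were single peaks (31.0%, 22.1 to 41.0), and of the 200 highest 68 (34%, 27.5 to 41.0). The intervals of the 100 and of the 200 highest end just below 41.2%. By step of score, single peaks made up 45.9% (41.2 to 50.7) of the 442 arm peaks under 60 and 45.4% (39.3 to 51.5) of the 269 from 60 to under 70. They made up 37.6% (32.4 to 43.0) of the 338 from 70 to under 100, 35.6% (28.6 to 43.1) of the 177 from 100 to under 150, 25.9% (15.3 to 39.0) of the 58 from 150 to under 200 and 38.1% (23.6 to 54.4) of the 42 from 200 upwards.

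The 2 highest single peaks shared a score of 387.42 and were tied for rank 2 on the arms. The peak at chr2R:16935065-16937007 was also the widest single peak, with 1943 bp. Its nearest peak lay 7042 bp to the right with a score of 59.42, and on the left the next peak was 215032 bp away. The peak at chr3L:8099655-8100717 (1063 bp) had its nearest peak 40795 bp to the left with a score of 50.57, and the next on the right at 81395 bp. Each of these peaks thus had 1 listed peak within 50 kb, with a score near the lower end of the list. The third, chr2R:2519666-2520774, scored 338.2 over 1109 bp and had peaks at 21346 bp on the left (score 78.66) and 28293 bp on the right.

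The other 17 of the 20 highest-scoring single peaks scored between 194.9 and 295.62. On 3L they were chr3L:21059267-21060243 (score 295.62), chr3L:15216501-15217262 (238.1), chr3L:21018557-21019922 (214.62), chr3L:16765817-16766939 (212.99), chr3L:11229622-11230803 (201.75) and chr3L:20510270-20510954 (195.32). Those on 2R were chr2R:16426504-16427370 (score 262.14), chr2R:11778029-11778977 (259.01) and chr2R:17254388-17255747 (252.04). Arm 2L gave chr2L:1410547-1412318 (score 237.26), chr2L:19533286-19534108 (231.67) and chr2L:16787273-16788166 (204.51). Arm 3R gave chr3R:864336-865260 (score 235.93), chr3R:935299-936143 (201.28) and chr3R:10504903-10506421 (195.97), and X gave chrX:3755890-3756926 (199.19) and chrX:6882599-6883170 (194.9). By arm, the 20 comprised 7 on 3L, 5 on 2R, 3 each on 2L and 3R, 2 on X and 0 on chromosome 4.

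High-scoring single peaks were wide, and their neighbours were ordinary. Their widths ran from 572 to 1943 bp, the median being 1007 bp, and 19 of them exceeded the median width of all single peaks, 587 bp. Their nearest peaks scored 50.57 to 156.35 with a median of 62.54, against a median of 68.095 over all arm peaks, and 17 of the 20 nearest peaks scored under 100. The nearest peak was itself a single peak for 16 and a clustered peak for 4. On both sides within 50 kb 11 of the 20 had a peak.

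The widest single peaks did not all score high. After the peak on 2R already described and chr2L:1410547-1412318 (1772 bp, score 237.26) came chr2R:20897677-20899385 (1709 bp) with a score of 145.46. The peak at chr3R:13542577-13544215 was 1639 bp wide with a score of only 53.95, rank 1111 of the 1326 arm peaks, and chr2L:6920756-6922313 was 1558 bp wide with a score of 85.72. The 5 narrowest were chr2L:19363693-19363919 (227 bp, score 74.61), chr2R:6747276-6747514 (239 bp, 68.45), chrX:8662111-8662354 (244 bp, 69.27), chr3L:2851892-2852146 (255 bp, 65.08) and chr2R:17615248-17615514 (267 bp, 55.36). Of these 5, 3 scored above the median of single peaks, 65.42. Over all 96 single peaks narrower than 400 bp, however, the median score was 56.68 (54.93 to 59.17), the lowest of the width steps.

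The neighbour of a single peak was in most cases another single peak. For 428 of the 546 (78.4%, 74.7 to 81.8) the nearest peak was single, for 83 it belonged to a pair and for 35 to a group of 3 or more. A remote peak cannot be the nearest peak of a single peak under the rule, and of a cluster only the outer peaks can be. The possible neighbours thus came from the 546 single peaks and from only part of the 493 clustered peaks, without the inner peaks of groups of 3 or more. The rule in part sets the share of 78.4%. Single peaks beside a clustered peak had a median score of 64.375 (59.83 to 67.74), against 65.83 (63.49 to 68.34) beside another single peak. Their median widths were 588.5 bp (519 to 676) beside a clustered peak and 587 bp (556 to 617) beside a single one, and both pairs of intervals overlap. Against a clustered neighbour the single peak scored higher in 46 of 118 cases (39.0%, 30.1 to 48.4), and against one in a group of 3 or more in 11 of 35 (31.4%, 16.9 to 49.3). Against a single neighbour it did so in 205 of 428 cases (47.9%, 43.1 to 52.7). These include peaks that are each other's nearest, where the share is 50% by construction. Without them it was 37 of 92 (40.2%, 30.1 to 51.0), close to the share against a clustered neighbour.

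In 168 cases 2 single peaks were each other's nearest peak, which accounts for 336 of the 546. The gap between them had quartiles of 9575 and 27392 bp and a median of 17837 bp. In 84 of these pairs (50%) neither peak had any further listed peak within 50 kb. The higher of the 2 scores was a median of 1.33 times the lower, the ratio exceeded 2 in 24 pairs (14.3%) and was under 1.1 in 30. In 7 pairs both peaks scored at least 100, in 46 exactly 1 did and in 115 neither. Between the left and the right peak of a pair, rho was 0.08 for score and 0.06 for width over 168 pairs. The members of a pair share the library and the stretch of chromosome, and such weak correlations are no finding.

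The 5 such pairs with the highest summed score show how unequal they could be. On 3L, chr3L:21040339-21041208 (score 156.35) and chr3L:21059267-21060243 (295.62) were 18058 bp apart and both strong. On 2L, chr2L:1410547-1412318 (score 237.26) and chr2L:1421562-1422635 (124.94) were 9243 bp apart and both above 100 as well. In the other 3 pairs 1 peak carried most of the summed score. The 2R peak of 387.42 was paired with chr2R:16944050-16944786 (score 59.42, a ratio of 6.52), and the 3L peak of 387.42 with chr3L:8058424-8058859 (score 50.57, a ratio of 7.66, the largest of the 168). The third was chr2R:2497825-2498319 (score 78.66) beside chr2R:2519666-2520774 (338.2), a ratio of 4.30.

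Most single peaks had company on 1 side. Peaks within 50 kb on both sides were found for 162 (29.7%, 25.9 to 33.7), and for the other 384 the gap on the far side exceeded 50 kb or, for 2 of them, no further peak of the arm followed. The far side exceeded 100 kb for 260 (47.6%) and 200 kb for 108 (19.8%). The nearest peak lay to the left for 278 of 546 (50.9%, 46.6 to 55.2). Median scores were 66.935 (63.18 to 69.41) with peaks on both sides and 65.02 (62.48 to 67.59) with peaks on 1 side, and median widths 598 bp (533 to 658) and 582.5 bp (554 to 625), with overlapping intervals. Counting all peaks within 50 kb, 223 single peaks (40.8%) had 1, 147 had 2, 87 had 3 and 89 (16.3%) had 4 or more. Across single peaks, rho of this count with score was 0.02.

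Score was weakly and inversely related to the distance to the nearest peak, which is also the distance used by the rule. The median score was 68.13 (65.98 to 75.33) for a nearest distance of 5 to 10 kb, 65.74 (62.14 to 73.22) for 10 to 20 kb, 64.96 (61.72 to 68.42) for 20 to 30 kb, 61.93 (58.24 to 66.04) for 30 to 40 kb and 62.09 (56.91 to 69.27) for 40 to 50 kb. Neighbouring steps overlap throughout. Over 546 peaks rho of distance and score was -0.13 (-0.21 to -0.05 from Fisher's transformation), and rho of distance and width -0.09. With a lower limit of 10 kb rho of distance and score was -0.09 (-0.18 to 0.01). With an upper limit of 20 kb it was -0.06 (-0.17 to 0.06). The rho of distance and score within an arm ranged from -0.22 on 3R to -0.07 on 2L. Scores of at least 100 were held by 20.6% (13.9 to 28.8) of the nearest step and by 14.3% (6.38 to 26.2) of the farthest, with overlapping intervals.

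Within 50 kb, 187 single peaks (34.2%, 30.3 to 38.4) had a score above that of every other listed peak, and the median score of these local maxima was 86.82. Since they were singled out by their scores, this median is a description. The share of such maxima among all arm peaks was not determined, so the 34.2% has no background value. For 223 single peaks there was only 1 listed peak within 50 kb to exceed.

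Among the large arms, the share of single peaks was highest on 3R and lowest on X. On 3R 169 of 361 peaks were single (46.8%, 41.6 to 52.1), on 2L 101 of 246 (41.1%, 34.8 to 47.5), on 2R 111 of 274 (40.5%, 34.6 to 46.6), on 3L 100 of 255 (39.2%, 33.2 to 45.5) and on X 63 of 187 (33.7%, 27.0 to 40.9). The intervals of 3R and X do not overlap, and those of the other large arms overlap both. On X as many peaks were remote as single, 63 each, while remote peaks made up 17.5% (13.7 to 21.8) of peaks on 3R. The low share on X depended on the upper limit. The X held 14.1% of all arm peaks and 11.5% (8.98 to 14.5) of the single peaks. With an upper limit of 100 kb it held 14.6% (12.1 to 17.4) of the single peaks, no longer below its share of all arm peaks. Single peaks occurred at 6.13 per Mb of the span between first and last peak on 3R, 5.67 on 2R, 4.61 on 2L, 4.37 on 3L and 2.94 on X. All peaks together occurred at 14.0 per Mb on 2R, 13.1 on 3R, 11.2 on 2L, 11.1 on 3L and 8.74 on X. Of these 5 arms the X was thus lowest in density and in the share of single peaks, while 2R was highest in density and not in the share. The part of density in the share was not tested. On chromosome 4, 2 of the 3 peaks were single.

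**Figure D4:**
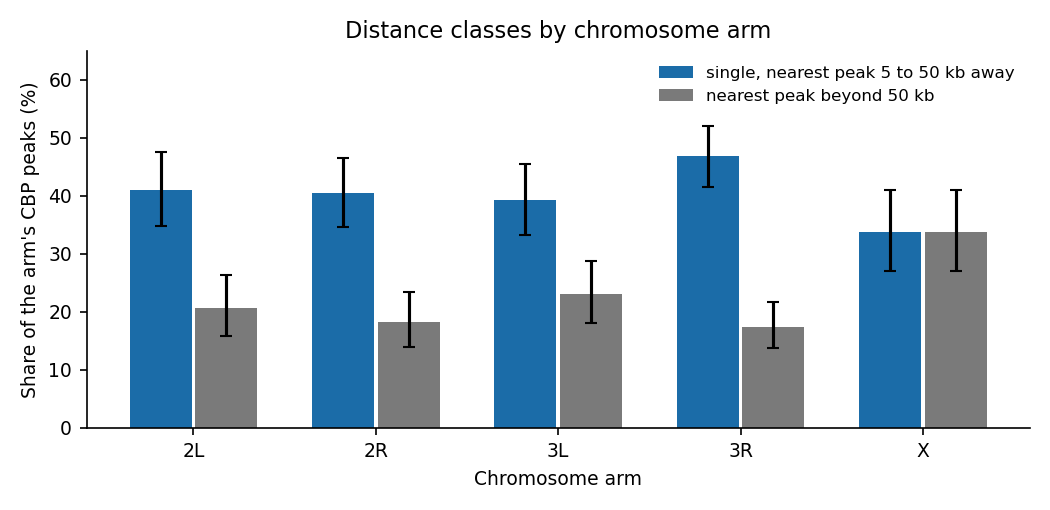
Share in percent (vertical axis) of each large arm's CBP peaks (horizontal axis) that were single or remote, with exact binomial 95% intervals as bars. Single peaks reach 46.8% on 3R and 33.7% on X, where the share of remote peaks is the same.

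In score and width the single peaks of the large arms had overlapping intervals. Arm 2L had a median score of 66.36 (59.66 to 71.18) at a median width of 627 bp (549 to 669), and 2R one of 65.92 (62.48 to 76.36) at 580 bp (528 to 690). For 3L these were 64.305 (60.48 to 72.26) and 529.5 bp (462 to 628), and for 3R 64.43 (61.42 to 68.44) and 606 bp (554 to 676). The X gave 66.28 (62.39 to 72.59) and 556 bp (501 to 611). The highest single peak of X reached 199.19 and that of 3R 235.93, against 237.26 on 2L and 387.42 on both 2R and 3L. A score of at least 100 was held by 23.0% of single peaks on 3L (15.2 to 32.5) and by 14.8% on 3R (9.81 to 21.1), with overlapping intervals. The 2 single peaks of chromosome 4, chr4:493919-494261 and chr4:522199-522823, scored 52.97 and 74.81 and lay 27937 bp apart.

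Along the arms, single peaks formed runs in which several followed each other with gaps between 5 and 50 kb and no clustered peak between them. The 546 made up 269 such runs: 94 stood by themselves, 115 runs held 2, 41 held 3, 12 held 4, and 7 held 5 to 12. Runs of 3 or more took in 222 single peaks.

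The longest run held 12 single peaks over 173895 bp of 3R, from 12544160 to 12718054, with gaps of 7160 to 25300 bp. Its scores ranged from 51.33 to 126.96 with a median of 87.315. The strongest were chr3R:12707983-12708678 (score 126.96), chr3R:12598692-12599699 (123.83), chr3R:12637368-12638173 (110.72) and chr3R:12717556-12718054 (108.06), and the weakest chr3R:12624278-12624770 (51.33). The first peak of the run, chr3R:12544160-12545261, was the widest of it with 1102 bp at a score of 64.47. Peaks above 100 and peaks under 100 were interspersed along the run.

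A second long run on 3R held 9 single peaks from 776731 to 936143, 8987 to 36261 bp apart. It contained 2 of the 20 highest-scoring single peaks, chr3R:864336-865260 (score 235.93) and chr3R:935299-936143 (201.28), among 7 peaks with scores between 51.59 and 90.17. On 2R a run of 8 spanned 17048788 to 17271888, with the peak of 252.04 at chr2R:17254388-17255747, a peak of 116.26 at chr2R:17137805-17138760 and 6 peaks between 50.8 and 77.18. A run of 6 on 2R from 7480424 to 7599821 had scores of 51.97 to 122.05. A run of 6 on 3L from 4252763 to 4384656 had scores of 50.47 to 63.13, so that each of its peaks lay close to the lower limit of the list. These runs thus differed in score, with 2 peaks above 200 in the run of 9, 1 in the run of 8 and none in the runs of 12 and 6.

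**Figure D5:**
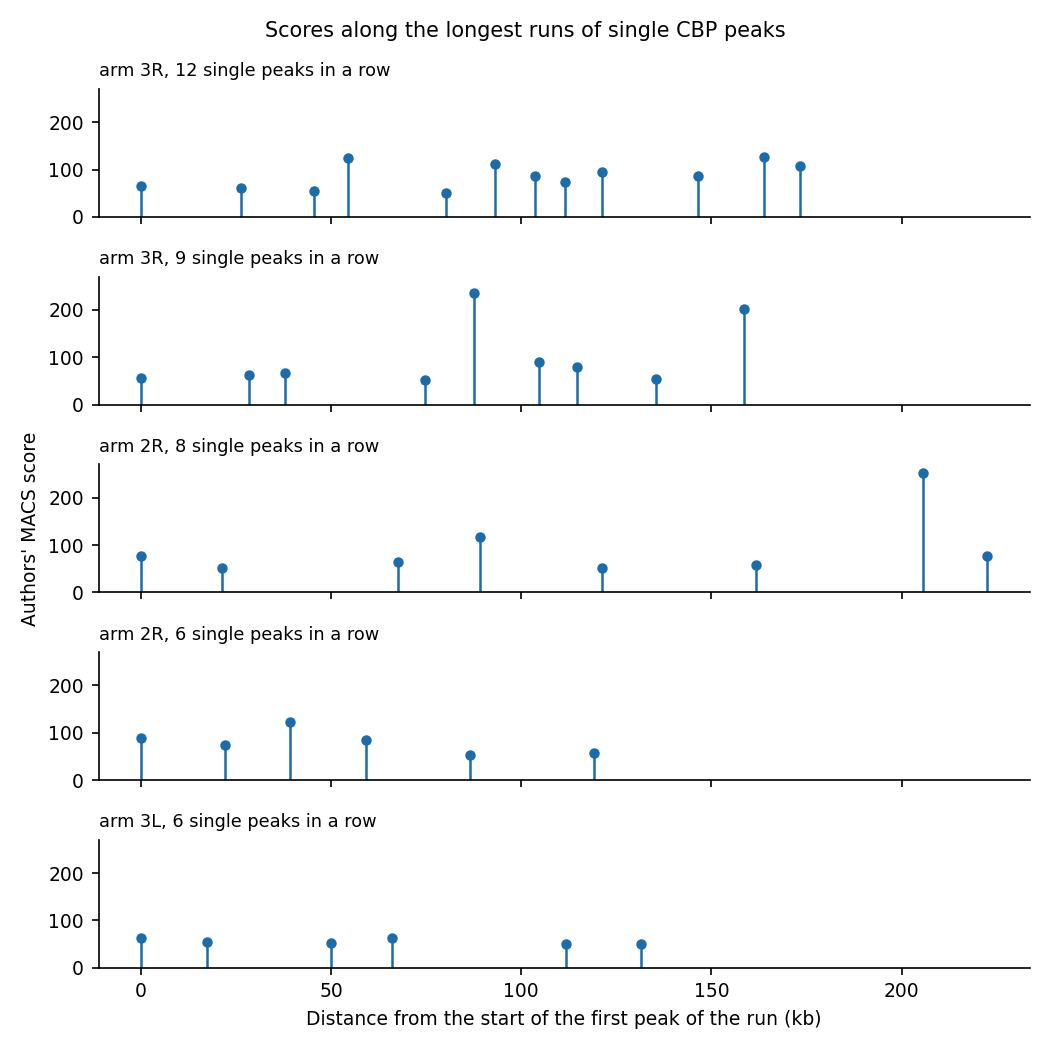
Scores (vertical axis, authors' MACS score) of the single peaks in the 5 longest runs, against the distance in kb from the start of the run's first peak (horizontal axis). The run of 12 on 3R has scores between 51.33 and 126.96, the run of 9 on 3R contains 2 peaks above 200 and the run of 8 on 2R contains 1, and the run of 6 on 3L stays at or below 63.13.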

How the data were processed

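One peak list was analysed, for the CBP ChIP sample. Per the file header, peaks were called with MACS. The submitters' processing notes name Bowtie and the build BDGP5. For versions, thresholds, any pooling of replicates and the use of the input in peak calling, the sources used here give nothing. The deposited score is the authors' MACS score, and other columns give positions, printed counting from 1. Input reads were not analysed here.

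Gaps between peaks were counted in bases from edge to edge among the listed peaks of the same arm, and peaks were joined into clusters at gaps of at most 5 kb. No model or test was fitted. Spearman's rho across peaks is descriptive, without p. The members, classes and steps were chosen with earlier results of these data known. Named are the 20 highest-scoring, 5 widest and 5 narrowest single peaks, the highest per arm, 3 peaks on each side of both limits, the 5 longest runs and the 5 mutual pairs of highest summed score. Analyses relative to genes, gene lists and motifs were not run, because the available annotation is of Release 6. The neighbour calculation was tested on simulated data. Alternatives changed the limits, the distance measure, the score minimum, joining, sequences and widths. Python 3.11.15, numpy 2.4.6, pandas 2.3.3, scipy 1.17.1 and matplotlib 3.10.9 were used.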

Additional observations from a re-analysis of the deposited data

Results flagged for a closer look

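Peaks on sequences outside the 6 main arms numbered 21 and were marked because signal was present in data that the comparisons do not use. None of the 21 met the distance rule (0 of 21), so they add no single peak.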

How the results depend on the processing

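No paired analysis was possible because there is 1 sample a group, and for the same reason no replicate could be left out. Settings for location relative to genes, gene lists and motifs were not run. Among the 117 values recomputed under other settings, 17 left the main range and 100 did not. This range was the 95% interval (for rho from Fisher's transformation) or, for the count, a range of 1.5 times. For differences it was the bounds from the 2 medians' intervals, which are wider than a 95% interval of the difference. With all listed sequences kept, values of single peaks alone could not change, as no added peak met the rule. These values count among the 100. With only peaks at or above the list median of 68.22 kept, 200 single peaks were left with a median width of 731.5 bp, a median score of 90.07, 36.5% on 3R, 83.5% with a single nearest peak and 19.5% flanked on both sides, and the difference in median score to clustered peaks was -14.0 in place of -8.11. With an upper limit of 20 kb, 283 single peaks had a median score of 67.74 and 13.8% were flanked on both sides. At 100 kb, 44.8% were flanked, and 14.6% lay on X in place of 11.5%, where X held 14.1% of all arm peaks. The difference in median width to remote peaks was then -55.5 bp in place of 13 bp. Its bounds from the 2 intervals included 0 in both settings. The difference to clustered peaks had bounds that include 0 for score with the 20 kb limit (-5.79, from -12.38 to 2.54) and for width with the score filter (-65.5 bp, from -167 to 44), and not in the other settings tried. The share with a single nearest peak, 78.4%, was 84.1% with a lower limit of 2 kb, 73.1% at 10 kb (where 24.8% were flanked on both sides) and 84.5% after peaks within 500 bp were joined. Narrower limits, the score filter and joining change by construction which peaks are single. Read depth is unknown, and 203 of the 546 single peaks scored under 60, near the end of the list, so that a lower threshold could add neighbours and take single peaks away.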

Other observations

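Single peaks were spread unevenly over windows of 1 Mb, counted from the start of each arm. These windows, and those named, were chosen after the values were seen. The 118 windows on the large arms held a median of 4 single peaks. The fullest, on 3R from 12000001 to 13000000, held 19 single peaks among 29 peaks and contains the run of 12. The window on 2R from 17000001 to 18000000 held 16 of 22, and that on 2L from 16000001 to 17000000 held 12 of 16. On 3R the window from 2000001 to 3000000 held 13 single peaks among 42 peaks, and the other 29 were clustered. The single peak with the most neighbours, chr3R:2630260-2630917, lies there, with 10 listed peaks within 50 kb and a score of 67.1. In 16 windows there was no single peak. The fullest of these were the one on 2L from 4000001 to 5000000, with 10 peaks of the other classes, and the one on 3L from 17000001 to 18000000, with 9. Others held hardly any peak: the first window of 2R held 0, and the last windows of 2L and 2R held 1 each. Peaks of all classes were thus also uneven, from 0 to 42 a window. Over the 118 windows, rho between the number of single peaks and that of other peaks was 0.18, as a description.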
